A study of Macaca mulatta with 15 samples.

Results

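The comparison sets CD4 memory against CD4 naive T cells, taken from peripheral blood of 2 healthy rhesus macaques named RhDBCb and RhM22. Its members are the 8 CD4 libraries among the 15 RNA-seq libraries of the series, 4 of memory and 4 of naive cells, and they were picked by the subset written in their titles. Each animal gave blood before and after daily subcutaneous injections of 2-hydroxypropyl-beta-cyclodextrin, a sugar ring that binds cholesterol, as a 15% (w/w) solution given at 1 ml/kg/day over at most 120 days. Each of the 4 draws gave 1 memory and 1 naive library, so memory was compared with naive within a draw. The groups are CD4 memory after, CD4 memory before, CD4 naive after and CD4 naive before treatment, each with 1 library per animal. The age of the animals and the way the subsets were separated are not given in the sources used here. The other 7 libraries hold CD8 memory and CD8 naive cells and were used for 1 comparison.

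A naive T cell has not yet met its antigen. It circulates through lymph nodes, guided by receptors such as CCR7, and is held in a resting state by transcription factors such as LEF1, TCF7 and BACH2. A memory T cell descends from cells that were activated before. It carries more adhesion molecules and receptors for inflammatory chemokines, and CD4 memory cells include helper, follicular and regulatory kinds that are set apart by transcription factors such as TBX21, GATA3 and FOXP3.

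Expression is given as CPM, a gene's count relative to its library total on a scale common to all libraries, after that total was adjusted for composition by TMM factors. The 4 values of a subset are listed in the order RhDBCb before, RhDBCb after, RhM22 before and RhM22 after. Total expected counts ran from 44414963 to 71773983 over the CD4 libraries. Since memory was compared with naive within a draw, p-values measure how much that difference varied between the 4 draws. The draws came from 2 animals and were taken as separate, so p-values do not measure the spread between animals. Fold changes are on the log2 scale, memory over naive, with the standard error (SE). A gene counted as called where its adjusted p fell under 0.05 in edgeR's quasi-likelihood test, with Benjamini-Hochberg adjustment over all genes tested, and "rose" and "fell" are used of called genes only.

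Marker genes followed the labels for most genes checked. S100A4, a calcium-binding protein of motile cells and a memory marker, had 414, 503, 308 and 317 CPM in memory libraries, against 24.8, 25.4, 18.2 and 21.5 CPM in naive libraries (log2 fold change 4.08, SE 0.12, adjusted p = 5.99e-06). Every memory library lay above every naive library. CD4, which marks helper T cells, had 268, 352, 541 and 519.6 CPM in memory libraries and 206, 318, 324 and 478 CPM in naive libraries (log2 fold change 0.35, SE 0.13, adjusted p = 0.108). CD8A and CD8B together stayed between 1.88 and 4.05 CPM in memory libraries and between 1.43 and 4.28 CPM in naive libraries. CCR7, the lymph node homing receptor used to define naive cells, had 9590, 8072, 6588 and 6014 CPM in memory libraries, against 17490, 9699, 11870 and 5838 CPM in naive libraries. Its groups overlapped and it did not pass the test (log2 fold change -0.49, SE 0.16, adjusted p = 0.0828). FAS and CD27, both used as markers of these subsets, were not analysed here.

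Memory and naive CD4 cells differed in 1972 of 13306 genes tested, or 14.8%. Of these 1235 were higher in memory cells (9.28%) and 737 were lower (5.54%). The median log2 fold change was 1.02 among genes that rose and -0.841 among those that fell, and -0.00329 over all genes tested. A fold change of 1 or more on the log2 scale was reached by 627 genes that rose, and one of -1 or less by 278 that fell. The direction was the same in 4 of 4 draws for 1225 of the 1235 and 731 of the 737, genes that were chosen on these draws. Of all 13306 genes tested, 2729 were higher and 2411 lower in 4 of 4 draws. The lowest memory library lay above the highest naive library in 693 of the 1235, and in 959 of all genes tested (7.21%). The highest memory library lay below the lowest naive library in 334 of the 737, and in 594 of all genes tested (4.46%). The counts depended on RhM22: leaving out its CD4 memory library gave 655 that rose and 344 that fell (before) or 552 and 238 (after), and leaving out its CD4 naive library gave 723 and 298 (before) or 574 and 231 (after). Without 1 library of RhDBCb, 1038 to 1093 genes rose and 556 to 623 fell. Counts given below for gene lists without 1 library are to be read beside these totals. None of the 1972 genes changed sign in any of these 8 fits. These fits reuse most of the libraries that chose the genes, so a kept sign is no independent support. Since memory is compared with naive within a draw, leaving out 1 library takes its whole draw out of the memory effect. Leaving out the memory or the naive library of a draw thus gives nearly the same fit. The 8 fits, here and below, amount to leaving out each of the 4 draws. Without the block by draw 311 genes rose and 94 fell.

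Among called genes with a mean of at least 5 CPM and 1 direction in all 4 draws, the 12 with the largest increase had varied roles. IL1RL1, the receptor for the alarm cytokine IL-33, had 11.4, 10.6, 13 and 13.4 CPM in memory libraries, against 0, 0, 0.2 and 0.361 CPM in naive libraries (log2 fold change 6.76, SE 0.77, adjusted p = 0.0012). Both naive libraries of RhDBCb held no IL1RL1 count, so the size of this fold change is uncertain. CGA, the alpha subunit that pituitary glycoprotein hormones share, had 689.7, 588, 179.6 and 122 CPM in memory libraries, against 9.34, 17.2, 2.52 and 1.11 CPM in naive libraries (log2 fold change 6.01, SE 0.28, adjusted p = 2.86e-05). The increase of CGA was present in all 4 draws, and its memory level was higher in both libraries of RhDBCb than in both of RhM22. Per length, CGA averaged 22.6 FPKM in memory and 0.427 FPKM in naive libraries, below the 151 and 8.72 FPKM of S100A4. CD80, a ligand of CD28 and CTLA4 best known on antigen-presenting cells, had 47.8, 56.2, 23.9 and 22.9 CPM in memory libraries, against 0.697, 1.1, 1.2 and 0.376 CPM in naive libraries (log2 fold change 5.47, SE 0.32, adjusted p = 0.000101). The groups of CD80 lay far apart.

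SLC1A4, a transporter of neutral amino acids, rose by 5.58 (SE 0.49) and CHDH, choline dehydrogenase, by 5.53 (SE 0.34). HOPX, a homeodomain protein without DNA binding of its own, rose by 4.35 (SE 0.37), MAMDC2 by 5.17 and NIBAN1 by 4.47. The remaining members of the 12, CCR2, CXCR3, GZMK and RRM2, are described with their groups. All 12 kept their call in each of the 8 fits that left out 1 library.

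The 12 genes with the largest decrease by the same rule also had varied roles. SMAD1, which carries BMP signals to the nucleus, had 1.48, 1.08, 0.75 and 0.619 CPM in memory libraries, against 49.5, 32.8, 28.6 and 24.4 CPM in naive libraries (log2 fold change -5.13, SE 0.18, adjusted p = 6.97e-06). TMIGD2, a co-stimulatory receptor for HHLA2, had 1.96, 2.28, 2.22 and 2.55 CPM in memory libraries, against 26, 36.2, 32.1 and 21.5 CPM in naive libraries (log2 fold change -3.66, SE 0.21, adjusted p = 8.63e-05). In both genes every memory library lay below every naive library. LRP5, a Wnt co-receptor, had 0.124, 1.84, 3.45 and 5.52 CPM in memory libraries, against 7.71, 15.2, 18.9 and 33.4 CPM in naive libraries, and fell by 3.20 on the log2 scale without overlap (adjusted p = 0.00369). NOG, which encodes the BMP antagonist noggin and is one of the naive and quiescence genes below, fell too (log2 fold change -1.73, SE 0.32, adjusted p = 0.0102), but its call was lost without the CD4 naive before, the CD4 naive after or the CD4 memory after library of RhM22 (adjusted p up to 0.0866).

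PREX2, an activator of Rac, had the largest decrease, with 0.0533, 0, 0.225 and 0.722 CPM in memory libraries, against 0.581, 3.98, 13.9 and 22.3 CPM in naive libraries (log2 fold change -5.55, SE 0.61, adjusted p = 0.00102). Its groups overlapped because the naive before library of RhDBCb lay below the memory after library of RhM22, yet memory was lower in 4 of 4 draws. FAM169A had 0.124, 1.35, 0.991 and 1.53 CPM in memory libraries and 14.4, 17.9, 13 and 10.6 CPM in naive libraries (log2 fold change -4.00, SE 0.55, adjusted p = 0.00273). The actin regulators CALD1, or caldesmon, and RFLNB, a filamin-binding protein, had log2 fold changes of -2.81 (SE 0.24) and -2.89 (SE 0.17), and the LIM protein FHL1 had -3.13 (SE 0.38). TENT5A (-2.80), RIN3 (-2.75) and MSRB3 (-2.73) also fell without overlap of the groups. OGFRL1 (-2.64) lost its call without either before library of RhM22 (up to 0.0615).

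**Figure D1:**
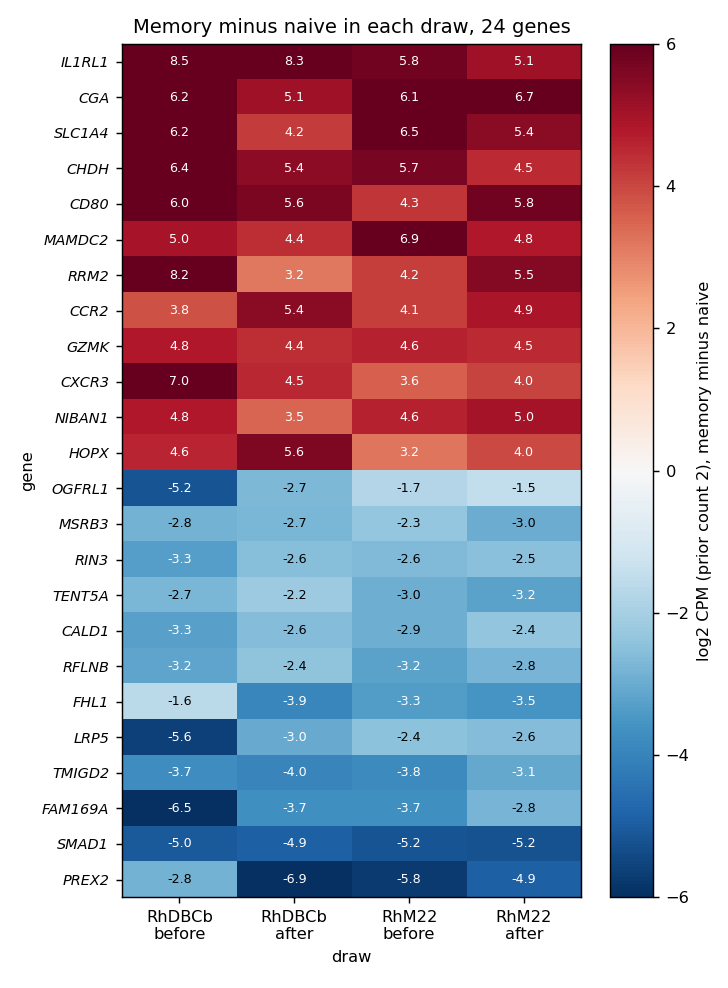
Heat map of memory minus naive in log2 CPM with a prior count of 2, for the 12 genes with the largest increase and the 12 with the largest decrease among those with a mean of at least 5 CPM (rows) in the 4 draws (columns). All 12 genes in the upper block are positive and all 12 in the lower block negative in 4 of 4 draws, and PREX2 has its smallest difference in the before draw of RhDBCb.

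Receptors for chemokines and other homing signals held the highest median of the lists examined. Of 18 listed genes all were tested, 14 rose and 0 fell, with a median log2 fold change of 3.93. In the fits that left out 1 library 11 to 14 rose. CXCR3, the receptor for interferon-induced chemokines on type 1 helper cells, had 16, 28.5, 22.8 and 26.5 CPM in memory libraries, against 0.0929, 1.23, 1.86 and 1.58 CPM in naive libraries (log2 fold change 4.53, SE 0.47, adjusted p = 0.000848). CCR4, a receptor of type 2 and skin-homing cells, had 62.8, 71, 257 and 217 CPM in memory libraries, against 11.4, 13.8, 14.5 and 15.2 CPM in naive libraries (log2 fold change 3.21, SE 0.33, adjusted p = 0.000741). CCR6, a receptor of type 17 helper cells, had 129.9, 196, 102 and 95.6 CPM in memory libraries, against 15.9, 27.5, 5.15 and 8.03 CPM in naive libraries (log2 fold change 3.42, SE 0.24, adjusted p = 0.000183). The groups did not overlap in any of these genes, and in memory libraries CCR4 was higher in RhM22 while CCR6 was higher in RhDBCb at the before time and at the after time.

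CXCR5, which leads follicular helper cells into B cell zones, averaged 265 ± 24.5 CPM in memory and 72.9 ± 18.6 CPM in naive libraries (SD, n = 4 each; log2 fold change 1.89, SE 0.14, adjusted p = 0.000213). CCR2, the receptor for CCL2, averaged 21.6 ± 3.32 CPM in memory and 0.934 ± 0.416 CPM in naive libraries (SD, n = 4 each; log2 fold change 4.62, SE 0.31, adjusted p = 0.000156). PTGDR2, the prostaglandin D2 receptor of type 2 helper cells, had 12.7, 9.58, 1.98 and 2.37 CPM in memory libraries and 0, 0.228, 0.02 and 0.11 CPM in naive libraries (log2 fold change 5.97, SE 0.75, adjusted p = 0.00183). CCR3, the eotaxin receptor, had 0.54 to 1.23 CPM in memory libraries and 1 count in all 4 naive libraries together, so no fold is given. The call of CCR3 was lost without any 1 of the 4 CD4 libraries of RhM22 (adjusted p up to 0.0653).

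**Figure D2:**
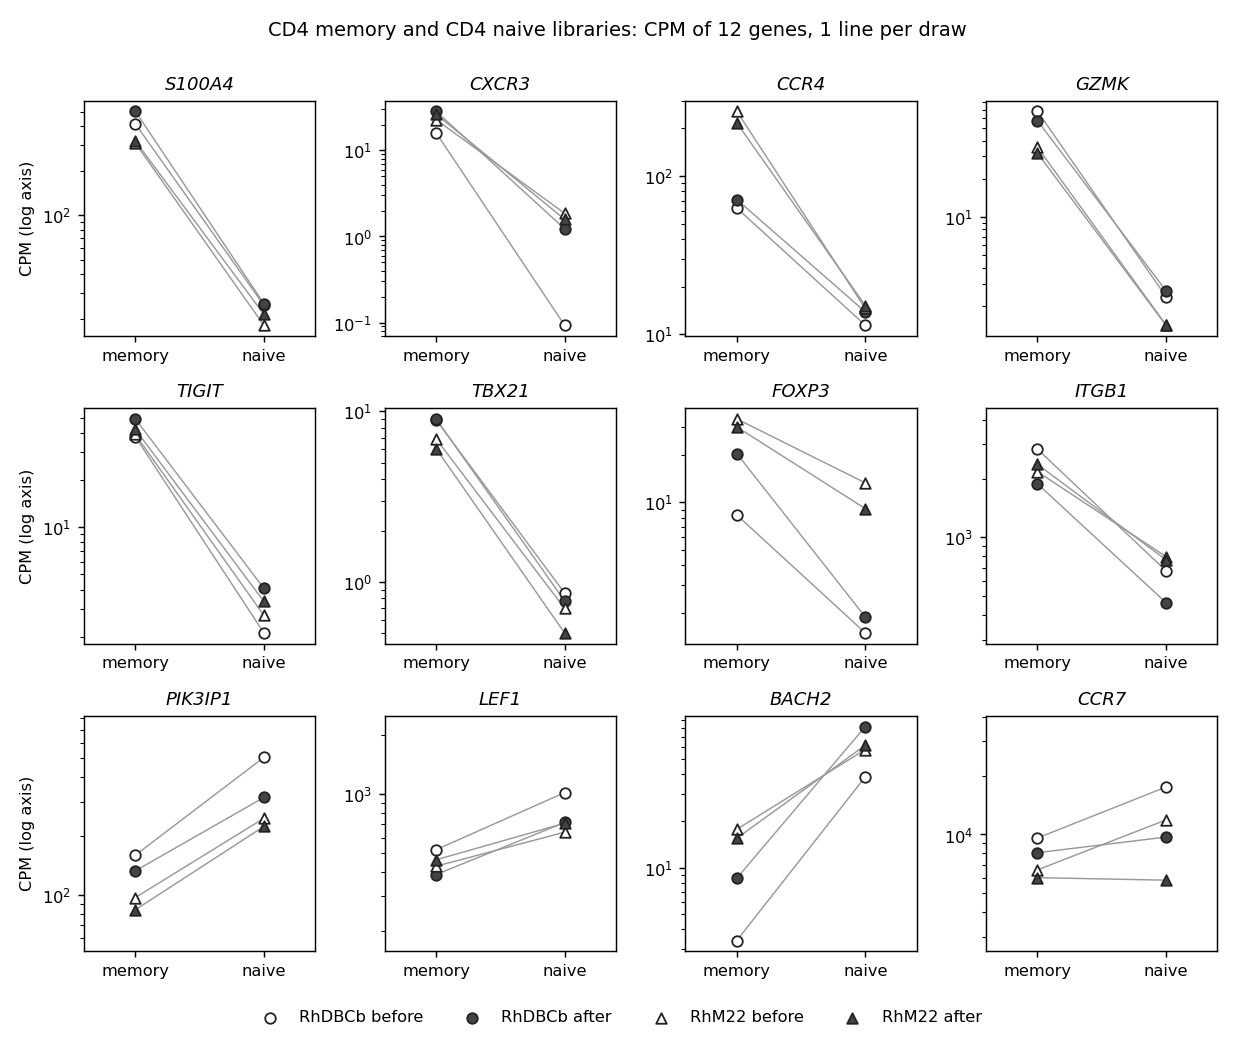
CPM on a log axis of 12 genes in the 4 CD4 memory libraries (left of each panel) and the 4 CD4 naive libraries (right), with a line joining the libraries of a draw, filled symbols for after and open symbols for before treatment, circles for RhDBCb and triangles for RhM22. The 8 genes of the upper rows are higher in memory in every draw, PIK3IP1, LEF1 and BACH2 are lower in every draw, and the lines of CCR7 do not all slope the same way.

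Of 18 adhesion and surface genes 17 were tested, 13 rose and 1 fell, with a median of 0.64. ITGB1, the integrin beta 1 chain, had 2827, 1879, 2170 and 2364 CPM in memory libraries, against 675, 464, 797 and 768 CPM in naive libraries (log2 fold change 1.79, SE 0.13, adjusted p = 0.000216). CD58, the ligand of CD2, averaged 99.9 ± 13.2 CPM in memory and 43.5 ± 4.9 CPM in naive libraries (SD, n = 4 each; log2 fold change 1.20, SE 0.11, adjusted p = 0.000431). CD82, a tetraspanin, averaged 101 ± 49.9 CPM in memory and 14.8 ± 2.28 CPM in naive libraries (SD, n = 4 each; log2 fold change 2.64, SE 0.21, adjusted p = 0.000267). CD44, the hyaluronan receptor, rose as well (log2 fold change 0.88, SE 0.14, adjusted p = 0.0062), but its groups overlapped because the naive before library of RhM22 lay above the memory before library of RhDBCb. The member that fell was ITGA6, the laminin receptor chain (log2 fold change -0.53, SE 0.10, adjusted p = 0.0111), whose call was lost without either after library of RhM22 (adjusted p up to 0.0591). The number of members that rose was 8 to 12 when 1 library was left out, and 8 came without either after library of RhM22.

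Of 16 S100, annexin and galectin genes, which encode calcium and lipid-binding proteins of motile cells, 15 were tested, 14 rose and 0 fell (median 1.52). When 1 library was left out 13 or 14 rose. LGALS3, or galectin 3, averaged 161 ± 47 CPM in memory and 24 ± 7.62 CPM in naive libraries (SD, n = 4 each; log2 fold change 2.76, SE 0.11, adjusted p = 1.26e-05). ANXA1, or annexin A1, had 3088, 4412, 2884 and 3113 CPM in memory libraries, against 1504, 2235, 2120 and 2142 CPM in naive libraries (log2 fold change 0.75, SE 0.13, adjusted p = 0.0072). The groups were separate in both genes. CRIP2, a LIM protein, rose by 3.05 (SE 0.23), with both subsets lower in RhM22 than in RhDBCb and overlap between the groups.

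Of 23 genes of actin and cell motility 21 were tested, 19 rose and 0 fell, at a modest median of 0.63. Without 1 library 10 to 17 members rose, with 10 without either after library of RhM22. MYO1F, a motor protein of leukocytes, had 127, 164, 133 and 208 CPM in memory libraries, against 12, 19.1, 16.9 and 18.5 CPM in naive libraries (log2 fold change 3.24, SE 0.13, adjusted p = 1.46e-05). LMNA, which encodes lamins A and C of the nuclear envelope, had 5091, 7263, 2733 and 2549 CPM in memory libraries, against 998, 1260, 825 and 382 CPM in naive libraries (log2 fold change 2.34, SE 0.17, adjusted p = 0.000187). MYO1G averaged 486 ± 55.7 CPM in memory and 250.5 ± 29.9 CPM in naive libraries (SD, n = 4 each; log2 fold change 0.96, SE 0.10, adjusted p = 0.000733). No memory library overlapped a naive one in these genes, and the difference of MYO1F and LMNA was well above the median of the list.

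Transcription factors of helper and effector cells were mostly higher in memory cells. All 22 listed genes were tested, 17 rose and 1 fell, with a median of 1.17. Leaving out 1 library gave 9 to 16 that rose, with 9 without either after library of RhM22. TBX21, or T-bet, the factor of type 1 helper cells, had 8.93, 9.03, 6.9 and 6.05 CPM in memory libraries, against 0.859, 0.773, 0.699 and 0.502 CPM in naive libraries (log2 fold change 3.45, SE 0.24, adjusted p = 0.000183). GATA3, the factor of type 2 helper cells, had 199, 221, 159 and 174 CPM in memory libraries, against 85.2, 101, 131 and 113 CPM in naive libraries (log2 fold change 0.82, SE 0.17, adjusted p = 0.0149). Memory and naive values were separate in both genes, but GATA3 lost its call without either after library of RhM22 (adjusted p up to 0.053).

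MAF, a factor of follicular and IL-10-producing cells, averaged 13.1 ± 1.8 CPM in memory and 3.2 ± 0.915 CPM in naive libraries (SD, n = 4 each; log2 fold change 2.06, SE 0.24, adjusted p = 0.00143). RUNX2, a Runt-family factor, rose by 3.60 (adjusted p = 0.0175), a call that was lost without any 1 CD4 library of RhM22 (up to 0.0863). PRDM1, or Blimp-1, an effector factor, averaged 14.2 ± 0.826 CPM in memory and 11.2 ± 5.23 CPM in naive libraries and did not pass the test (adjusted p = 0.294). ID2, an inhibitor of helix-loop-helix factors, was the member that fell (log2 fold change -0.88, SE 0.18, adjusted p = 0.0136), and its call was likewise lost without any 1 CD4 library of RhM22 (up to 0.0796).

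Cytokine receptors mostly had a positive fold change, in 22 of the 25 tested. Over all genes tested 9.28% rose and 5.54% fell. Of 26 listed genes 25 were tested, 12 rose and 2 fell (median 0.65), and 7 to 14 rose when 1 library was left out, with 7 without the CD4 memory after library of RhM22. IL12RB2, a chain of the IL-12 receptor, had 1.39, 2.92, 8.69 and 5.6 CPM in memory libraries, against 0.0232, 0.0127, 0.2 and 0.0314 CPM in naive libraries (log2 fold change 6.42, SE 0.54, adjusted p = 0.000354). IL23R, a receptor chain for IL-23, had 4.37, 5.84, 2.76 and 2.28 CPM in memory libraries, against 0.0232, 1.2, 0.0799 and 0.0314 CPM in naive libraries (log2 fold change 4.79, SE 0.82, adjusted p = 0.00715). The naive after library of RhDBCb was well above the other 3 naive libraries in IL23R, and the call was lost without the CD4 memory before library of RhM22 (adjusted p = 0.0516). IL6ST, the signalling chain shared by IL-6 family receptors, fell (log2 fold change -0.89, SE 0.13, adjusted p = 0.00369), and so did TGFBR2, a receptor for TGF-beta (log2 fold change -0.71, SE 0.14, adjusted p = 0.0142), with overlap between the groups in both. IL7R, the survival receptor of resting T cells, averaged 284 ± 102 CPM in memory and 269 ± 125 CPM in naive libraries (adjusted p = 0.731), and IL2RB averaged 796 ± 432 CPM in memory and 612 ± 447 CPM in naive libraries (adjusted p = 0.105).

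Of 26 cytokines, chemokines and ligands 21 were tested, 6 rose and 1 fell (median 1.23), near the share over all genes for decreases and above it for increases. IL10, a regulatory cytokine, had 2.47, 5.76, 3.77 and 3.49 CPM in memory libraries, against 0, 0, 0.02 and 0.047 CPM in naive libraries, with 4 naive counts in all (adjusted p = 0.000733). TNFSF14, or LIGHT, had 4.05, 7.63, 5.49 and 4.49 CPM in memory libraries, against 0.163, 1.19, 0.2 and 0.251 CPM in naive libraries (log2 fold change 3.98, SE 0.45, adjusted p = 0.00114). Neither gene overlapped between subsets. CCL5 (1.23, adjusted p = 0.0473) and LTA (-0.82, adjusted p = 0.0471) were called at the margin: CCL5 lost its call in each of the 8 fits that left out 1 library (up to 0.123), and LTA kept its call only without the CD4 naive after or the CD4 memory after library of RhDBCb (up to 0.117 otherwise). CD40LG, the ligand by which helper cells activate B cells, did not pass the test (log2 fold change -0.27, SE 0.16, adjusted p = 0.286).

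Of 17 genes of cytotoxic granules and killer receptors 15 were tested, 10 rose, 5 were not called and 0 fell (median 2.68), and 8 or 9 rose when 1 library was left out. GZMK, or granzyme K, had 68, 57.3, 35.4 and 31.9 CPM in memory libraries, against 2.37, 2.64, 1.42 and 1.41 CPM in naive libraries (log2 fold change 4.60, SE 0.16, adjusted p = 6.97e-06). GZMA, or granzyme A, had 5.55, 2.37, 3.09 and 3.61 CPM in memory libraries, against 0.0232, 0.165, 0.459 and 0.141 CPM in naive libraries (log2 fold change 4.36, SE 0.72, adjusted p = 0.00622). KLRB1, or CD161, had 7.25, 6.92, 11.4 and 11.3 CPM in memory libraries, against 0.534, 0.545, 0.499 and 0.172 CPM in naive libraries (log2 fold change 4.42, SE 0.43, adjusted p = 0.000605). The subsets did not overlap in any of these genes. PRF1, or perforin, had lower values in each memory library, with 27.2, 29.2, 26.8 and 28.7 CPM in memory libraries and 51.8, 64.6, 31.3 and 33.8 CPM in naive libraries, and did not pass the test (log2 fold change -0.63, SE 0.18, adjusted p = 0.0535). KLRG1 was called with only 3 naive counts in all and 0.21 to 1.11 CPM in memory libraries, and kept that call in 2 of the 8 fits that left out 1 library, those without the CD4 naive before or the CD4 naive after library of RhDBCb (adjusted p up to 0.0959 otherwise).

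Genes linked to regulatory T cells rose in part: all 13 listed genes were tested, 7 rose and 0 fell (median 1.79), and 6 to 10 rose when 1 library was left out. FOXP3, the defining factor of regulatory T cells, had 8.32, 20.4, 33.8 and 30.1 CPM in memory libraries, against 1.49, 1.88, 13.3 and 9.13 CPM in naive libraries (log2 fold change 2.22, SE 0.34, adjusted p = 0.00417). IL2RA, the high-affinity IL-2 receptor chain, had 36.7, 53.4, 151 and 91.6 CPM in memory libraries, against 5.25, 15.9, 62.8 and 33.7 CPM in naive libraries (log2 fold change 1.79, SE 0.24, adjusted p = 0.00232). Both genes were higher in memory in 4 of 4 draws, and both overlapped between subsets. In FOXP3 both naive libraries of RhM22 lay above the memory before library of RhDBCb. In IL2RA the naive before library of RhM22 lay above both memory libraries of RhDBCb. TNFRSF18, or GITR, had 54, 59.4, 22.8 and 23.4 CPM in memory libraries, against 11.2, 11.2, 5.59 and 5.41 CPM in naive libraries (log2 fold change 2.21, SE 0.14, adjusted p = 0.000117). CTLA4, an inhibitory receptor of the same list, averaged 32.9 ± 7.27 CPM in memory and 37.2 ± 5.03 CPM in naive libraries and did not pass the test (adjusted p = 0.315). In bulk RNA, fewer cells of a type and less RNA per cell cannot be told apart.

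Among 15 inhibitory receptors 14 were tested, 5 rose and 0 fell (median 0.46), and 3 rose without any 1 CD4 library of RhM22. TIGIT, an inhibitory receptor for CD155, had 37.8, 49, 39 and 42 CPM in memory libraries, against 2.11, 4.07, 2.74 and 3.36 CPM in naive libraries (log2 fold change 3.80, SE 0.16, adjusted p = 1.95e-05). PDCD1, or PD-1, had 47.8, 68.2, 52.7 and 54.4 CPM in memory libraries, against 13.5, 13.9, 14 and 14.2 CPM in naive libraries (log2 fold change 1.99, SE 0.13, adjusted p = 0.000147). CD101 averaged 30.5 ± 3.24 CPM in memory and 3.76 ± 1.92 CPM in naive libraries (SD, n = 4 each; log2 fold change 3.16, SE 0.28, adjusted p = 0.000414). These 3 genes were separate between subsets and kept their call whichever library was left out.

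Among 14 co-stimulatory receptors 13 were tested, 5 rose and 1 fell (median 0.33), and 3 rose without either memory library of RhM22. TNFRSF4, or OX40, averaged 29 ± 13.2 CPM in memory and 5.15 ± 0.674 CPM in naive libraries (SD, n = 4 each; log2 fold change 2.41, SE 0.24, adjusted p = 0.000733). CRTAM rose by 2.04 (adjusted p = 0.00905) and lost its call without either CD4 memory library of RhM22 (up to 0.0571). TNFRSF8, or CD30, was called with 2 counts over the naive libraries, 0.182 to 3.22 CPM in memory libraries and no fold given. CD28, the main co-stimulatory receptor, averaged 589 ± 177 CPM in memory and 542 ± 90.8 CPM in naive libraries (adjusted p = 0.782). ICOS rose by 0.45 (adjusted p = 0.0295), but kept this call only without the CD4 naive after or the CD4 memory after library of RhDBCb, and CD84 fell by 0.43 on the log2 scale (adjusted p = 0.0309), a call lost in each of the 8 fits that left out 1 library (up to 0.144 and 0.123).

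Naive and quiescence genes held the most decreases of the lists examined. Of 22 listed genes 19 were tested, 0 rose and 12 fell (median -0.74), and 7 to 12 fell when 1 library was left out, with 7 without either after library of RhM22. LEF1 had 519, 388, 428 and 461 CPM in memory libraries, against 1018, 716, 639 and 709.7 CPM in naive libraries (log2 fold change -0.76, SE 0.11, adjusted p = 0.00327). BACH2, a repressor that restrains effector differentiation, had 3.38, 8.53, 17.6 and 15.4 CPM in memory libraries, against 38.6, 81.3, 57.8 and 61.6 CPM in naive libraries (log2 fold change -2.60, SE 0.31, adjusted p = 0.00153). Memory was lower than naive without overlap in both genes, and the BACH2 decrease was the largest among the called members of the list. PIK3IP1, an inhibitor of PI3 kinase, averaged 118 ± 34.4 CPM in memory and 323 ± 128 CPM in naive libraries (SD, n = 4 each; log2 fold change -1.42, SE 0.11, adjusted p = 0.000232). TCF7 fell by 0.57 on the log2 scale (SE 0.11, adjusted p = 0.0106), a call lost without either after library of RhM22 (up to 0.0877).

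All 26 genes listed for T cell receptor signalling were tested, 2 rose and 2 fell (median 0.0361), a share close to that over all genes tested. SH2D2A, an adaptor of LCK, averaged 63.3 ± 27.2 CPM in memory and 26.8 ± 7.72 CPM in naive libraries (SD, n = 4 each; log2 fold change 1.21, SE 0.20, adjusted p = 0.00673). THEMIS, a signalling protein of thymocyte selection, averaged 30.9 ± 15 CPM in memory and 57.9 ± 29.9 CPM in naive libraries (SD, n = 4 each; log2 fold change -0.88, SE 0.11, adjusted p = 0.00188). The other called members were CD3D (0.46, adjusted p = 0.0152) and NFATC1 (-0.64, adjusted p = 0.0478). CD3D lost its call without the CD4 memory before, CD4 memory after or CD4 naive after library of RhM22 (up to 0.0961), and NFATC1 kept its call only without 1 of the before libraries of RhDBCb (up to 0.161 otherwise).

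All 24 proliferation genes listed were tested, 14 rose, 10 were not called and 0 fell (median 2.03), and 12 to 15 rose when 1 library was left out. RRM2, a subunit of ribonucleotide reductase, had 30.6, 23.8, 15.1 and 19.9 CPM in memory libraries, against 0.0697, 2.62, 0.819 and 0.408 CPM in naive libraries (log2 fold change 4.92, SE 0.70, adjusted p = 0.00304). TYMS, or thymidylate synthase, had 6.19, 6.4, 2.4 and 3.52 CPM in memory libraries, against 0.511, 0.127, 0.12 and 0.0314 CPM in naive libraries (log2 fold change 4.90, SE 0.57, adjusted p = 0.00131). BIRC5, or survivin, had 15.9, 5.61, 1.94 and 3.58 CPM in memory libraries, against 0.0232, 0.0507, 0 and 0 CPM in naive libraries, with 5 naive counts in all (adjusted p = 0.000213). Memory libraries lay above naive libraries in all 3 genes, and the memory before library of RhDBCb held the most BIRC5.

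Of 17 glycolysis genes 16 were tested, 8 rose and 1 fell (median 0.43). Without either after library of RhM22 2 rose, and 5 rose without either before library of RhDBCb or the CD4 memory before library of RhM22. Over all genes 1235 rose, but 552 and 574 without the CD4 memory after and CD4 naive after library of RhM22. TPI1, or triosephosphate isomerase, averaged 345 ± 117 CPM in memory and 194 ± 54 CPM in naive libraries (SD, n = 4 each; log2 fold change 0.81, SE 0.10, adjusted p = 0.00152). SLC2A3, the glucose transporter GLUT3, averaged 2205 ± 842 CPM in memory and 3501 ± 1203 CPM in naive libraries and fell (log2 fold change -0.69, SE 0.11, adjusted p = 0.00501). GAPDH (0.70, adjusted p = 0.0111) lost its call without the CD4 memory before, CD4 memory after or CD4 naive after library of RhM22 (up to 0.0677), and PFKL (0.66, adjusted p = 0.0112) without either after library of RhM22 (up to 0.0619). Of 23 cholesterol synthesis genes 21 were tested, 7 rose and 0 fell (median 0.29; 5 to 8 rose when 1 library was left out). SQLE, or squalene epoxidase, had 121, 75.6, 62 and 69.3 CPM in memory libraries, against 31.9, 29.7, 16.8 and 19.3 CPM in naive libraries (log2 fold change 1.75, SE 0.14, adjusted p = 0.00025). Its groups were separate. PMVK, phosphomevalonate kinase, also rose (log2 fold change 1.08, SE 0.14, adjusted p = 0.00227), and HMGCS1 (0.86, adjusted p = 0.0173) lost its call without either before library of RhM22 (up to 0.0907).

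Of 25 immediate early genes, which respond within minutes to stimulation or handling, 24 were tested, 3 rose and 10 fell (median -0.43), and 6 to 11 fell when 1 library was left out. Without either after library of RhM22 6 fell, and without any 1 CD4 library of RhM22 1 rose. TNFAIP3, or A20, an inhibitor of NF-kB, had 1974, 522, 943 and 934 CPM in memory libraries, against 3417, 1295, 1908 and 1615 CPM in naive libraries (log2 fold change -0.98, SE 0.12, adjusted p = 0.00153). NR4A1, or Nur77, which follows T cell receptor signals, had 150.1, 165, 98.7 and 126 CPM in memory libraries, against 328, 229, 203 and 267 CPM in naive libraries (log2 fold change -0.93, SE 0.13, adjusted p = 0.00307). TNFAIP3 overlapped between subsets and NR4A1 did not. DUSP4, a MAP kinase phosphatase, rose (log2 fold change 1.10, SE 0.15, adjusted p = 0.00246), as did NR4A3 (0.67, adjusted p = 0.0238) and ATF3 (0.81, adjusted p = 0.036). The last 2 calls were lost without any 1 CD4 library of RhM22 (up to 0.0731 and 0.163), and that of ATF3 also without either after library of RhDBCb. The part of handling time in these values was not tested.

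Type I interferon-stimulated genes and ribosomal protein genes differed in how many members were called. Of 30 interferon-stimulated genes 29 were tested, 10 rose and 0 fell (median 0.62), and 4 to 9 rose when 1 library was left out, with 4 without either after library of RhM22. MX2, an antiviral GTPase, had 9.09, 35.8, 58.5 and 41.4 CPM in memory libraries, against 2.16, 10.2, 12.9 and 9.56 CPM in naive libraries (log2 fold change 2.04, SE 0.14, adjusted p = 0.000179). IFIT3 averaged 63.8 ± 37.8 CPM in memory and 27.5 ± 12.2 CPM in naive libraries (SD, n = 4 each; log2 fold change 1.15, SE 0.14, adjusted p = 0.00139). Both genes were higher in memory in 4 of 4 draws, with overlap between draws. OAS1 (1.34, adjusted p = 0.0347) kept its call only without either before library of RhM22 (up to 0.131 otherwise). Of 45 ribosomal protein genes 42 were tested, 0 rose and 1 fell, RPL10A (-0.37, adjusted p = 0.0369), a call lost in 6 of the 8 fits that left out 1 library, all but those without an after library of RhDBCb (up to 0.171). The ribosomal median was -0.0926, with a positive fold change in only 4 of the 42 tested. Reads of ribosomal protein genes and of GAPDH can also match processed copies elsewhere in the genome, so their values are uncertain.

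**Figure D3:**
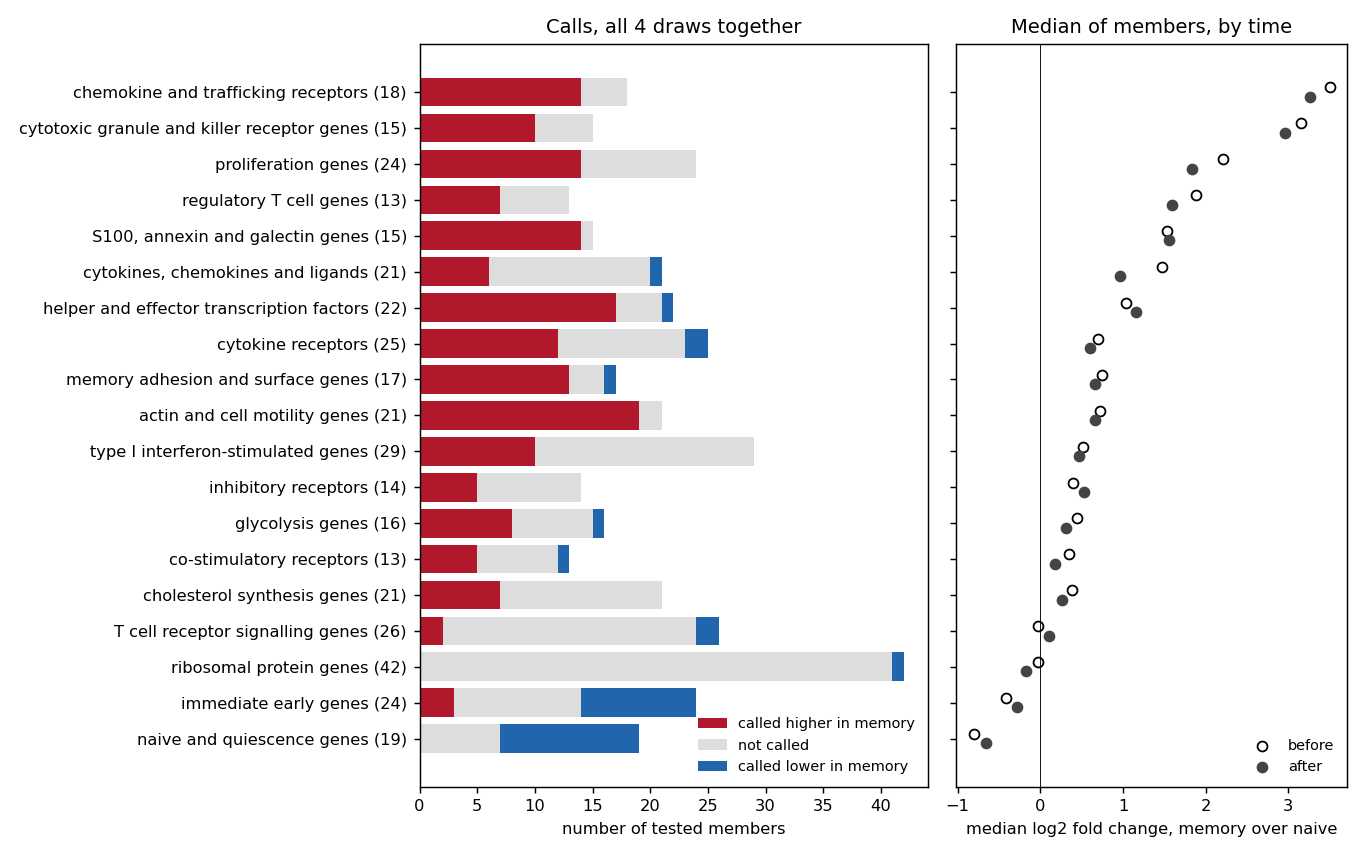
Left, for 19 gene lists (number of tested members in brackets), how many members were called higher in CD4 memory than in CD4 naive cells, not called, or called lower, with all 4 draws together; right, the median log2 fold change of the tested members after (filled) and before (open) treatment. Chemokine and trafficking receptors lie highest, at 3.26 after and 3.50 before, and naive and quiescence genes lowest, at -0.66 after and -0.80 before.

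Markers of other blood cells were detected in the CD4 libraries, and a few members were called between the subsets. Over all genes tested 9.28% were called higher in memory and 5.54% lower. The summed level of 13 monocyte and dendritic cell markers, 10 of them tested, was 10.4 to 44.2 CPM in memory and 7.99 to 15.4 CPM in naive libraries, with 0 called, or 4 and 3 without the CD4 memory before or CD4 naive before library of RhDBCb. All 10 had a positive log2 fold change (median 1.14). Natural killer cell markers summed to 7.22 to 9.73 CPM in memory and 5.21 to 7.42 CPM in naive libraries, and 2 of 7 tested were called higher, with a positive fold change in all 7 (median 0.84). These were NCAM1, at 0.147 to 1.00 CPM in memory libraries, and XCL1, with 2 naive counts in all. NCAM1 kept its call only without the CD4 naive after or the CD4 memory after library of RhDBCb (adjusted p up to 0.174 otherwise), and XCL1 in none (up to 0.172). B cell markers summed to 17.9 to 25.7 CPM in memory and 21.4 to 27.7 CPM in naive libraries, and 1 of 8 tested was called, the B cell kinase BLK at 2.99, 3.1, 1.61 and 1.93 CPM in memory and 0.232, 0.0634, 0.22 and 0 CPM in naive libraries.

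Platelet markers summed to 11.2 to 41.1 CPM in memory and 12.2 to 113 CPM in naive libraries, and 2 of 11 tested fell, with a negative fold change in 9 of the 11 (median -0.924). GNG11 had 1.41, 2.8, 4.32 and 4.07 CPM in memory libraries, against 7.06, 10.6, 9.24 and 14.8 CPM in naive libraries (log2 fold change -1.79, SE 0.25, adjusted p = 0.00274). PPBP, a platelet chemokine, had 1.14, 14, 24.2 and 19.3 CPM in memory and 2.32, 15, 41.7 and 67.3 CPM in naive libraries (adjusted p = 0.0489), a call kept only without either after library of RhDBCb (up to 0.212 otherwise). Erythroid markers stayed at or below 2.26 CPM in sum. Markers of gamma-delta and invariant T cells summed to 9.53 to 22.3 CPM in memory and 13.7 to 26.5 CPM in naive libraries, and SLC4A10, a transporter of mucosal-associated invariant T cells in humans, was called with 2 naive counts in all and 0.765 to 2.67 CPM in memory libraries. The part of such cells in the results was not tested.

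The effect at each time was estimated as a contrast of 1 joint fit of the 8 libraries, in which the times share the estimate of the spread, and genes were called at both times. After treatment 520 genes were called (3.91%), 384 higher (2.89%) and 136 lower (1.02%). Before treatment 601 genes were called (4.52%), 433 higher (3.25%) and 168 lower (1.26%). Both times have 1 pair per animal, and they share the animals but no library. Genes called higher at both times numbered 287, which is 74.7% of those after and 66.3% of those before. Genes called lower at both times numbered 88, which is 64.7% of those after and 52.4% of those before, and 0 genes were called in opposite directions. Of the 433 genes higher before, 431 had a positive fold change after, and all 168 that were lower before had a negative one. In turn all 384 and 136 genes called after had the same sign before.

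The genes called higher before had a median log2 fold change of 1.51 after and 1.63 before, and those called lower had -1.07 after and -1.29 before, where the before values are the ones that chose these genes. Among the 1972 genes called over both times, 1759 differed by less than 1 on the log2 scale between times, with a median absolute difference of 0.26. Over all 13306 genes the fold changes of both times had the same sign in 70.7%, with Pearson's r of 0.579 and Spearman's rho of 0.55 across genes, and genes are no independent replicates.

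The count at 1 time moved with single libraries. The after count of 520 was 180 and 233 without the memory and naive after libraries of RhDBCb, which leaves that time with 1 animal, and 369 and 446 without the CD4 memory after and CD4 naive after libraries of RhM22. It was 858 and 878 without the CD4 memory before and CD4 naive before libraries of RhDBCb. The before count of 601 was 186 and 192 without the CD4 memory before and CD4 naive before libraries of RhDBCb, 350 and 305 without those of RhM22, and 959 when the after CD4 naive library of RhDBCb was left out.

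**Figure D4:**
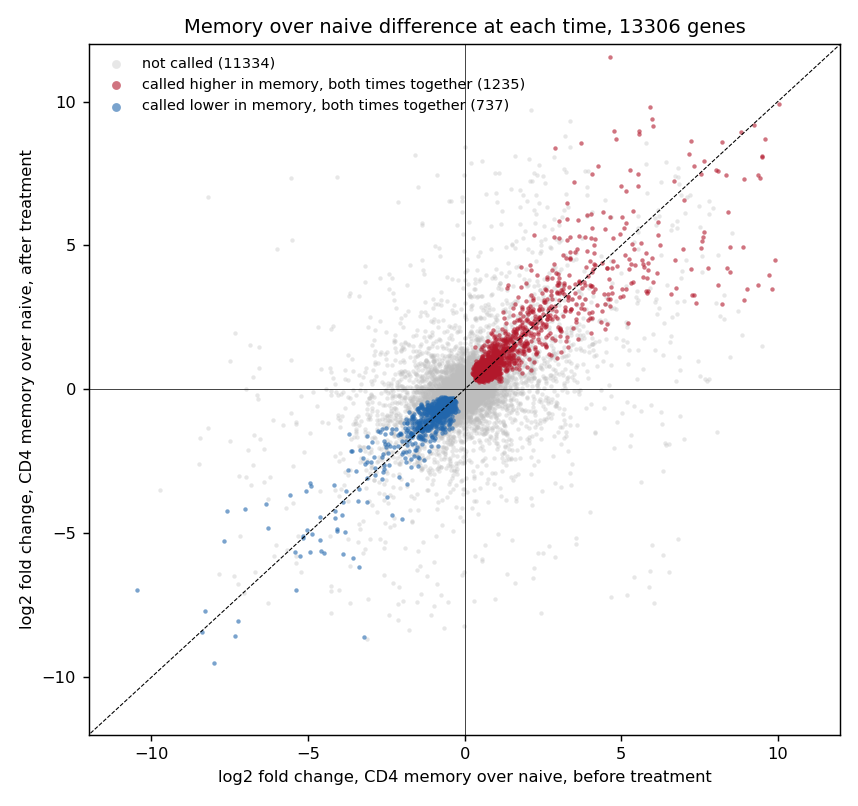
Log2 fold change of CD4 memory over CD4 naive before treatment (x axis) and after treatment (y axis) for 13306 genes, with the dashed line at equal values. The 1235 genes called higher over both times together lie in the upper right quadrant and the 737 called lower in the lower left one, in part because they were chosen on both times, while genes not called also fill the other quadrants.

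No gene differed in its memory effect between the times in edgeR's quasi-likelihood test (0 of 13306, 0%). This test had 2 residual degrees of freedom, and a missed threshold does not show that the effects were equal. Unadjusted, 397 genes had p under 0.05, the smallest adjusted p was 0.996, and DESeq2 called 1 gene. Leaving out 1 library gave 0 to 2. Among the 1972 genes called over both times, 54 had an unadjusted p under 0.05. Among the gene lists, the median of chemokine and trafficking receptors was 3.26 after and 3.50 before, that of S100, annexin and galectin genes 1.56 after and 1.53 before, and that of naive and quiescence genes -0.66 after and -0.80 before. Cytokines, chemokines and ligands had the widest gap among the lists of the plot of gene lists, at 0.96 after and 1.47 before.

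By gene, S100A4 had a log2 fold change of 4.09 after and 4.07 before, PIK3IP1 one of -1.33 after and -1.50 before, SMAD1 one of -5.10 after and -5.15 before, and TIGIT one of 3.62 after and 3.99 before. The 5 genes with the smallest p for the difference are given as values, since none was called. GZMB, or granzyme B, had 42.9, 39.6, 74.8 and 62.9 CPM in memory libraries, against 18.7, 7.43, 30.1 and 10.8 CPM in naive libraries, so its naive level was lower after than before in both animals. Its fold change was 2.48 after and 1.26 before (difference 1.22, SE 0.24, adjusted p = 0.996). ABI3 had 1.46 after and 0.35 before, PIP5K1A -0.19 after and 1.25 before, PTBP3 -0.34 after and 0.73 before, and KLHL21 -0.30 after and 0.61 before. CCR7, which was not called over both times together, had -0.11 after (adjusted p = 0.72) and -0.86 before, where it was called lower (adjusted p = 0.0231). The difference between the times was not called (adjusted p = 0.996).

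The effect in each animal was estimated as a contrast of 1 joint fit, in which the animals share the estimate of the spread. In RhM22 563 genes were called (4.23%), 413 higher (3.1%) and 150 lower (1.13%). In RhDBCb 923 genes were called (6.94%), 585 higher (4.4%) and 338 lower (2.54%). Shared calls numbered 316 higher, or 76.5% of those in RhM22 and 54% of those in RhDBCb, and 105 lower, or 70% of those in RhM22 and 31.1% of those in RhDBCb. In 1 gene the calls of the animals had opposite directions. The order of these counts turned round when each animal was fitted alone on its 4 CD4 libraries, an alternative chosen after seeing the data: RhM22 then gave 1656 higher and 1114 lower genes and RhDBCb 197 higher and 56 lower. A fit of 1 animal alone had fewer residual degrees of freedom than the joint fit. In no gene did the memory effect differ between the animals in edgeR's quasi-likelihood test (0%), with 723 genes at an unadjusted p under 0.05, a smallest adjusted p of 0.395 and 35 calls by DESeq2. Like the test between the times, this one had 2 residual degrees of freedom, and a missed threshold does not show that the effects were equal.

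The count of 0 genes that differed between the animals rested on the libraries of RhDBCb. It was 753 and 904 when the before or the after CD4 memory library of RhDBCb was left out, and 781 and 930 when the before or the after CD4 naive library was. It stayed at 0 without any 1 library of RhM22. A fit without 1 library of RhDBCb leaves that animal with 1 draw and takes the spread from RhM22 alone. Without 1 library of RhM22 the spread comes from RhDBCb alone.

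The 5 genes with the smallest p for the difference between animals are again values only. CCR4 had a log2 fold change of 3.99 in RhM22 and 2.41 in RhDBCb, with higher memory values in RhM22, as listed above (difference 1.58, SE 0.23, adjusted p = 0.396). GLT1D1, a glycosyltransferase-like protein, had 18.3, 13.2, 19.1 and 20.6 CPM in memory libraries, against 1.49, 0.608, 10.8 and 12.3 CPM in naive libraries, so its animals differed in the naive level. CHPT1, a choline phosphotransferase, had 13, 13.1, 26.2 and 25.2 CPM in memory libraries, against 0.465, 1.01, 13.7 and 12.9 CPM in naive libraries. CHN1, or chimerin 1, had a fold change of 0.34 in RhM22 and 2.90 in RhDBCb. CD1C, a lipid antigen-presenting molecule, had -1.51 in RhM22 and 2.96 in RhDBCb, where both before libraries were at 0.

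The CD4 memory effect was set against that of CD8 cells in a fit of all 15 libraries, with each draw of each lineage as a block. The after draw of RhDBCb had no CD8 naive library here, so its CD8 memory library added nothing to the CD8 effect. Of 14814 genes tested 17 differed (0.115%), 3 with a higher effect in CD4 cells (0.0203%) and 14 with a lower one (0.0945%). Unadjusted, 1137 had p under 0.05, and DESeq2 called 188. CD40LG had the largest gap among the named genes whose difference was called. In CD4 cells it had 35.3, 36.8, 34.9 and 37.8 CPM in memory and 56.4, 39.3, 31.5 and 52.6 CPM in naive libraries. In CD8 memory libraries it had 19.4, 8.39, 2.57 and 4.44 CPM, and in the 3 CD8 naive libraries, RhDBCb before, RhM22 before and RhM22 after, 2.06, 0.291 and 0.309 CPM. The CD4 effect minus the CD8 effect was -3.66 (SE 0.30, adjusted p = 0.00145), and it was called in each of the 15 fits that left out 1 library.

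PRF1 also had a higher effect in CD8 cells. It had 276, 452, 1242 and 1160 CPM in CD8 memory libraries and 101, 192 and 136 CPM in CD8 naive libraries, against a CD4 effect that did not pass the test (difference -3.06, SE 0.39, adjusted p = 0.0197). CTSL, a lysosomal protease, had a CD8 effect of 3.38 and a difference of -2.44 (adjusted p = 0.00627). The effect was higher in CD4 cells for THY1, a surface glycoprotein, with 107, 155, 28.9 and 30.9 CPM in CD4 memory libraries and 9.82, 15, 3.19 and 3.61 CPM in CD4 naive libraries (difference 1.72, SE 0.23, adjusted p = 0.0197). THY1 was nonetheless more abundant in CD8 cells, at 371 to 947 CPM in memory and 119 to 441 CPM in naive libraries. RASGRF2, an activator of Ras, had a log2 fold change of -1.37 in the fit of the CD4 libraries and -4.55 in CD8 cells (difference 3.16, SE 0.49, adjusted p = 0.0466), and RCAN3, a calcineurin regulator, had -0.24 in CD4 and -1.68 in CD8 cells (difference 1.42, adjusted p = 0.0333).

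The 17 calls were not stable. The count was 35 and 37 without the CD8 naive before and CD8 memory before libraries of RhDBCb, 23 without its CD8 memory after library and 2 to 5 without any 1 of the other 12 libraries. CTSL lost its call only where the before CD8 naive library of RhM22 was left out (adjusted p = 0.0506), PRF1 and RASGRF2 in 12 of 15 fits (up to 0.116 and 0.167), THY1 in 10 (up to 0.0935) and RCAN3 in 13 (up to 0.142). For most memory genes described here no difference from CD8 cells was called: for S100A4 the difference was 0.30 (SE 0.28, adjusted p = 0.9) and for GZMK 1.73 (SE 0.54, adjusted p = 0.433). A missed threshold does not show that the effects were equal.

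**Figure D5:**
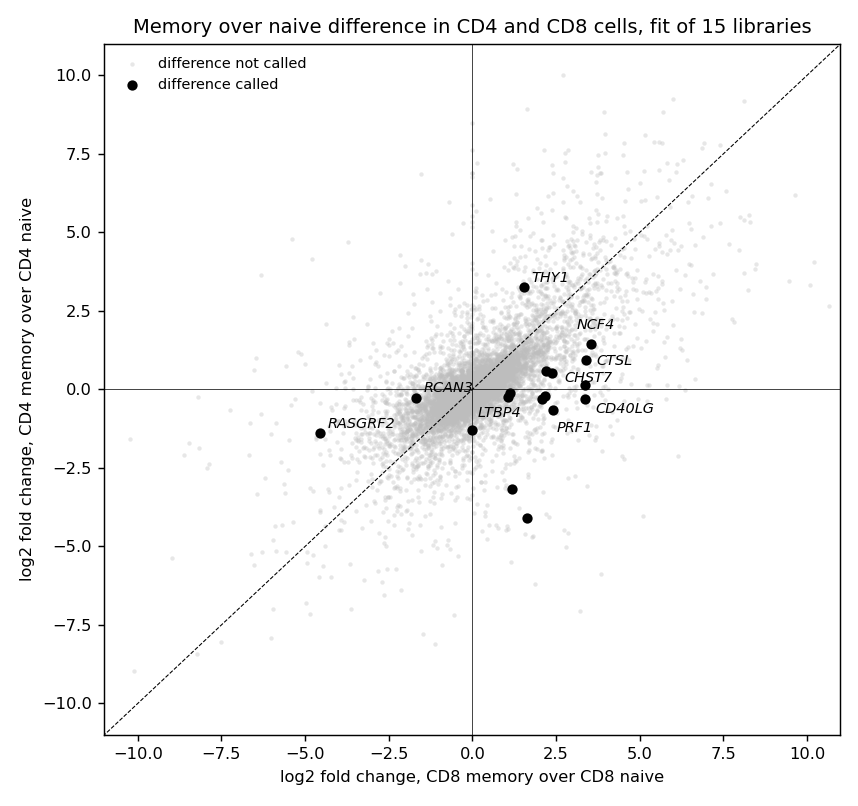
Log2 fold change of memory over naive in CD8 cells (x axis) and in CD4 cells (y axis) from the fit of 15 libraries, for the 13306 genes tested in both fits, with the dashed line at equal values. Black points are the 17 genes whose difference was called, and CD40LG, CTSL and NCF4 lie to the right of the line while THY1 and RASGRF2 lie above it.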

How the data were processed

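RNA-seq of T cell subsets from rhesus macaque blood was made with RNeasy Micro extraction and SMART-Seq v4 cDNA, per the labels' protocols. How the subsets were separated is not described there. Reads were processed with cutadapt 1.18, STAR 2.7.6a and RSEM 1.3.3, with builds named Mmul_10 and rheMac10, per the submitters' processing notes. The authors deposited a table of RSEM expected counts for 34884 genes, which were rounded here to whole counts (a library total moved by at most 26.1), and a table of FPKM, used as deposited for levels per length and 1 alternative. The count table itself gave symbols for 23407 genes, a separate list of names by gene ID gave 933 more, and 10544 had none. SMART-Seq v4 does not mark strand, so overlapping and antisense genes cannot be told apart.

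Genes were kept by edgeR's filterByExpr (minimum count 10), scaled by TMM and tested with edgeR 4.0.16 (glmQLFit and glmQLFTest, R 4.3.3), with the draw (animal and time) as a block, 3 residual degrees of freedom and Benjamini-Hochberg adjustment over all genes tested. The SE is the fold change divided by the square root of F. The draw pairs the libraries because both come from 1 animal at 1 time, and within draws the deviations correlated across genes at 0.453 and 0.283 in RhDBCb and 0.487 and 0.524 in RhM22, before and after. Memory and naive libraries from different draws of 1 animal correlated at 0.213 and 0.142 in RhDBCb and 0.382 and 0.447 in RhM22. Draws of 1 animal thus also shared deviations. Times and animals were tested as interactions with the same block, where the effect by time and that by animal each left 2 residual degrees of freedom. The difference from CD8 cells was tested in a fit of all 15 libraries with 5 residual degrees of freedom. Alternatives used DESeq2 1.42.0, limma 3.58.1 on log2(FPKM + 1) or log2(FPKM + 0.1), other filters and other designs, and left out each library in turn. The scripts were tested on simulated data.

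The named genes are the 12 highest and 12 lowest called genes with a mean of at least 5 CPM and 1 direction in all draws, up to 3 called members per direction of each list, a panel of known genes, and for each difference up to 6 called genes per direction or else the 5 with the smallest p. A few genes that the rule takes are not reported here. Members, lists and tests were chosen with earlier results of these data known.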

Additional observations from a re-analysis of the deposited data

Results flagged for a closer look

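In groups of 4 libraries, 1 library stood apart from the other 3 in 17 of 256 groups (128 named genes in 2 subsets), where normally distributed values would give about 1 in 20. CPM near 0 are not of that kind and most of the genes were chosen on these libraries, so that rate is no test here. In CD4 memory libraries RhDBCb stood apart before treatment for CALD1 at 1.014 CPM and SLC1A4 at 4.072 CPM, and after treatment for SH2D2A at 103.9 CPM and ANXA1 at 4412 CPM. In CD4 naive libraries after treatment RhDBCb stood apart for IL23R at 1.204 CPM, NCAM1 at 0.1775 CPM, NIBAN1 at 5.526 CPM and TNFSF14 at 1.191 CPM, and RhM22 for PIP5K1A at 72.76 CPM, NR4A3 at 121.9 CPM, TCF7 at 121.6 CPM and KLRB1 at 0.1725 CPM. In CD4 naive libraries before treatment RhDBCb stood apart for CCR3 at 0.02323 CPM, TNFRSF8 at 0.04645 CPM and ANXA1 at 1504 CPM, and RhM22 for IL12RB2 at 0.1997 CPM and XCL1 at 0.03993 CPM. CCR3, TNFRSF8 and XCL1 rest on 1 to 2 naive counts, all in 1 library, and the rule flags any count beside 0 in the other 3.

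The memory effect differed between CD4 and CD8 cells in edgeR's test of the difference for 9 named genes. The CD4 minus CD8 difference in log2 fold change was 1.72 for THY1, 3.16 for RASGRF2 and 1.42 for RCAN3, which were positive. It was -3.66 for CD40LG, -3.06 for PRF1, -2.44 for CTSL, -2.38 for LTBP4, -2.09 for NCF4 and -1.87 for CHST7, which were negative. CD40LG alone among the 9 was called whichever of the 15 libraries was left out, and CHST7 lost its call in 14 of the 15 fits.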

How the results depend on the processing

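In every alternative run, each of the 1972 called genes that was tested kept its sign, and no named gene reversed. The runs reuse libraries that chose these genes, so a kept sign is no independent support. Without the replicate block, 311 genes were higher and 94 lower, 9 were called before and 5 after treatment. With animal and time as additive terms, 803 were higher and 344 lower. With DESeq2, 1341 were lower, 1561 were called before and 1416 after, and the differences held 1 gene between times, 35 between animals and 188 between CD4 and CD8 cells. With no filter on low counts, 817 were called after and 61 differed between CD4 and CD8 cells. With limma on log2(FPKM + 1), 764 were higher and 364 lower, with + 0.1 758 and 356, and without its filter 426 and 193. Fitted alone, a choice made after seeing the data, RhDBCb gave 197 higher and 56 lower and RhM22 gave 1656 higher and 1114 lower, the reverse of the order of the animals in the joint fit. Leaving out 1 library gave 552 to 1093 higher, 231 to 623 lower, 186 to 959 before, 180 to 878 after, 0 to 2 between times, 0 to 930 between animals and 2 to 37 between CD4 and CD8 cells; the cause was not tested. Size factors of DESeq2, a mean of at least 5 CPM and all 15 libraries in the fit kept every count run within 1.5 times. With 2 animals and low counts in naive cells, small differences and the size of large folds are imprecise. The residual degrees of freedom were 3, or 2 for the effect by time and for that by animal. Fits of 1 animal alone or without 1 CD4 library had fewer.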
